A study of Rattus norvegicus with 20 samples.

Results

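The C-type lectin and natural killer receptor genes are described here in the whole blood of rats with surgically induced reflux esophagitis. They were taken by name: a gene was a member where its name in the scanner files began with Clec, Klr or Ly49, and each was read from its brightest probe. This gave 61 of 26316 genes on the array, on 67 of 30367 probes. They were divided into 29 Clec genes and 32 natural killer genes (Klr and Ly49).

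Blood was drawn from 20 Wistar rats, 4 in each of 5 groups, and each rat had 1 array of 1 colour (Cy3). Operated rats of 3 groups were given a drug for 7 days ahead of the reflux operation and for the 10 days that followed. It was the proton pump inhibitor omeprazole (30 mg/kg) in the first group and the herbal preparation STW5 in the others (2 ml/kg and 0.5 ml/kg). The other groups were operated rats left untreated and rats with a sham operation. The labels give no age, sex or vehicle for any group, and they give 4 animals for each group, so the spread between arrays is a spread between animals.

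C-type lectin receptors share a protein fold that in some members binds sugars and in many binds proteins or lipids. Several Clec genes encode sensors of myeloid cells: Dectin-1 (Clec7a) recognises fungal beta-glucan, Mincle (Clec4e) and Clec4d recognise mycobacterial glycolipids, and Clec5a signals through the adaptor Dap12. Not all Clec genes are myeloid: Clec1b is the podoplanin receptor of platelets, Clec14a is known from endothelium, and Clec2 genes encode ligands of NKR-P1 receptors. Klr and Ly49 genes encode the lectin-like receptors by which natural killer cells and some T cells read MHC class I and stress ligands. Inhibitory members recruit phosphatases through a motif in their own tail, and activating members signal through adaptors such as Dap12 (Tyrobp) and Dap10 (Hcst). In rodents most natural killer receptor genes of this kind lie in a cluster called the natural killer gene complex.

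The scanner files place 21 of the 29 Clec probes and 30 of the 32 natural killer probes on rat chromosome 4 (build rn4). A probe on these arrays is an oligonucleotide of 60 bases. The sequences below are those of 4 genes whose group differences passed a test and of a pair of natural killer genes with similar probes. Each is written 5′ to 3′ as the scanner files give it. Capitals mark the 20 bases that the Klrb1a and Klrb1b probes share without a break.
Clec5a: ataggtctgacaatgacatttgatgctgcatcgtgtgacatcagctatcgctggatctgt
Clec4d: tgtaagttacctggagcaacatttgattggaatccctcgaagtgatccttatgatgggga
Clec7a: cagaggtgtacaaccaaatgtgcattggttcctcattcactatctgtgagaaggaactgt
Ly49si1: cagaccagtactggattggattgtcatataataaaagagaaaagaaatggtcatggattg
Klrb1a: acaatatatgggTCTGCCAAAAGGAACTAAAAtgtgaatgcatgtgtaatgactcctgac
Klrb1b: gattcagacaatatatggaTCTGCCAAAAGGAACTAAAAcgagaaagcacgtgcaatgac

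In build rn4 the Clec5a probe lies at chr4:68175632-68175691 on the minus strand and the Clec4d probe at chr4:159892539-159892598 on the plus strand. The Clec7a probe lies at chr4:166725168-166725227, the Ly49si1 probe at chr4:167452766-167452825, the Klrb1a probe at chr4:165637803-165637862 and the Klrb1b probe at chr4:165699496-165699555, all on the minus strand. Exon and intron positions were not analysed here, since the gene table at hand is of another build. Of the 39 members tested, 7 had a probe that matched a probe of another gene over at least 30 bases at 80% identity or more, none of them a Clec gene (0 of 19). The Ly49i4 and Ly49s3 probes shared a run of 48 bases and those of Ly49s5 and Ly49s6 a run of 28, so the signals of these genes, and of Klrb1a and Klrb1b, may not be separate.

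The level of a gene is the log2 ratio of its processed intensity to the 75th percentile of the array, and a change is a difference of group means of this level, ± standard error (SE) with 4 arrays per group. The 75th percentile ran from 65.0 to 232 and 40.7% to 55.3% of probes were well above background. It was 80.5 to 172 on omeprazole arrays, 65.0 to 136 on STW5 2 ml/kg arrays, 128 to 232 on STW5 0.5 ml/kg arrays and 84.8 to 141 on sham arrays. Tested genes were those well above background on at least 4 arrays (14671 genes), and a change passed at a limma adjusted p below 0.05. Arrays of the untreated group correlated with each other across genes at 0.874 to 0.949, against 0.975 to 0.986 in the sham group. Across non-control spots, the highest correlation of untreated array 1 with another array was 0.986, a value shared with sham array 3. Omeprazole arrays shared slide 3, STW5 arrays of either dose slide 2, and untreated and sham arrays slide 1, so treatment and slide cannot be told apart wherever omeprazole or STW5 is set against another slide's group. The STW5 doses are those of the array titles: in the deposited value table all 8 STW5 columns follow the array of the other dose, so every difference between the doses may run the other way.

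Of the 39 members tested, 19 were Clec genes and 20 natural killer genes. Another 16, 8 in each class, were well above background on no array, and 6, 2 Clec and 4 natural killer genes, on 1 to 3 arrays. On all 20 arrays 11 Clec genes were above background but only 1 natural killer gene, Klrk1, which encodes the activating receptor NKG2D. Klrc1, which encodes an inhibitory partner of CD94, was among the genes not tested. By family, 6 of 7 genes of the Dectin-2 cluster, 5 of 6 of the Dectin-1 cluster, 8 of 16 other Clec genes, 11 of 17 Ly49 genes, 3 of 5 NKG2 and CD94 genes, 3 of 4 NKR-P1 genes and 3 of 6 other Klr genes were tested. The median SE of a change between groups was 0.39 for the Clec genes and 0.59 for the natural killer genes, against 0.34 over all genes tested. The heat map of members by array shows both the detection and this spread.

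**Figure D1:**
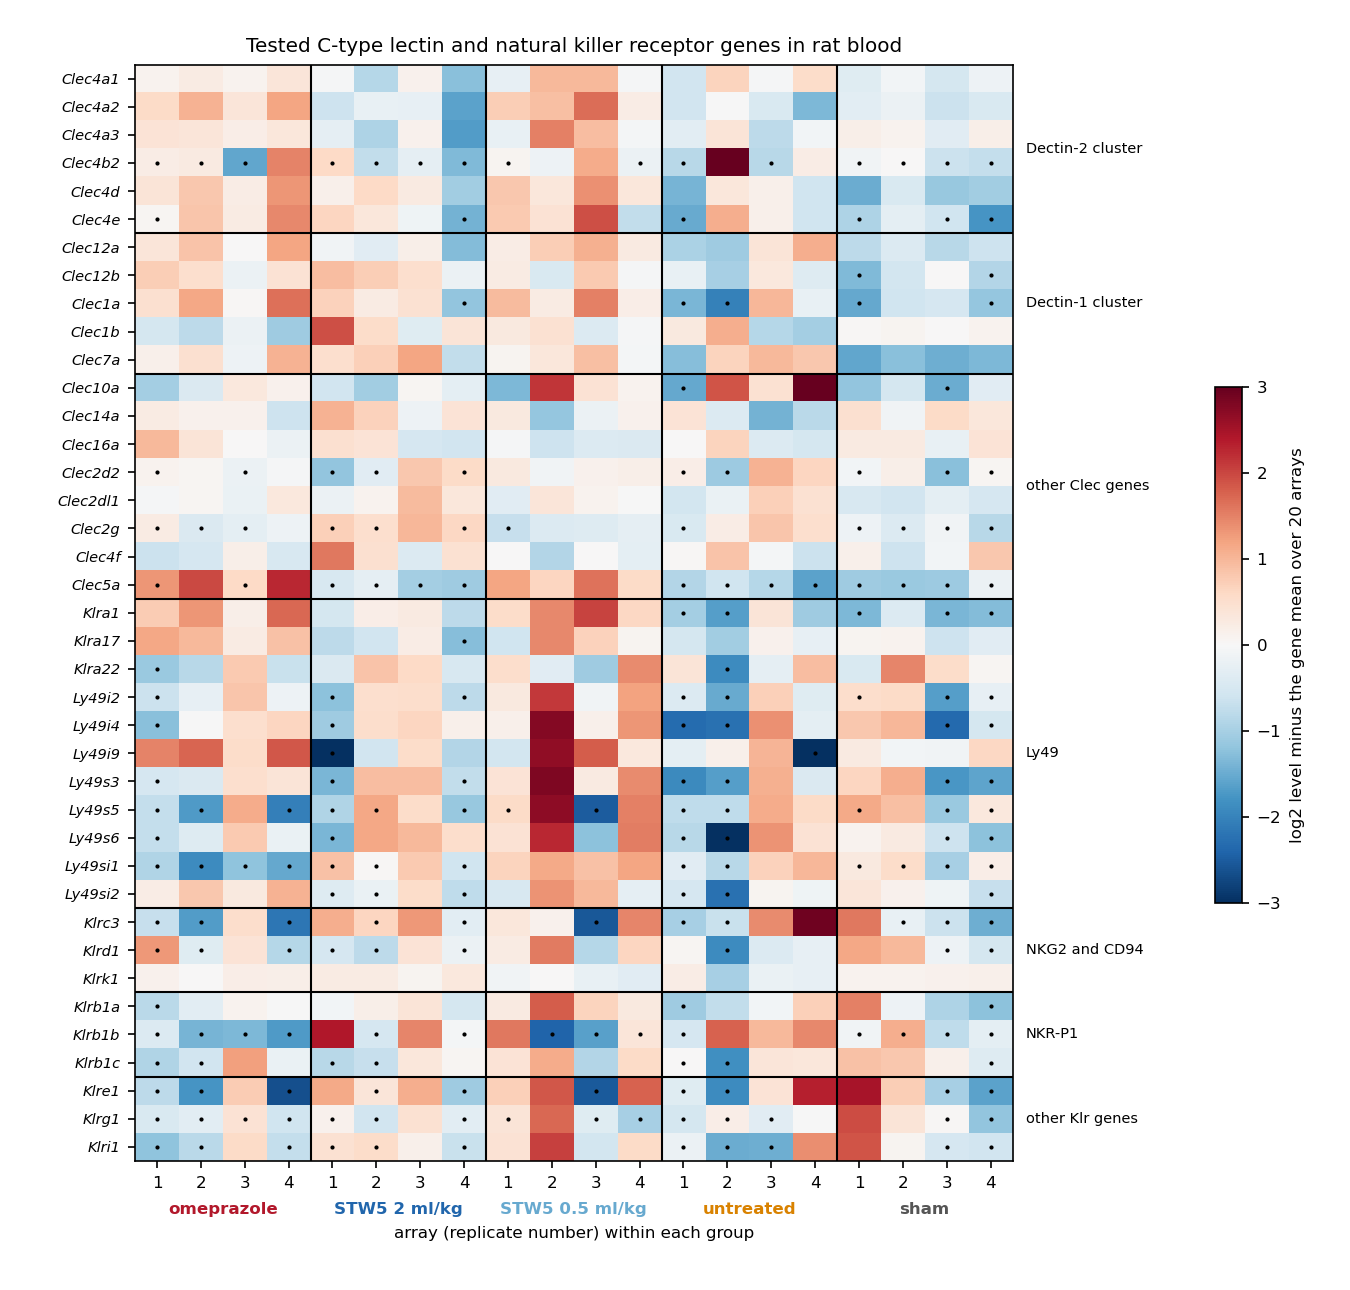
Each row is 1 of the 39 tested genes, ordered by family, and each column 1 array, 4 in each group; colour is the log2 level minus the gene's mean over the 20 arrays, with colours ending at -3 and 3. A dot marks an array where the probe was not well above background. The mean over the 19 Clec rows lies between -0.01 and 0.56 on omeprazole arrays and between -0.56 and -0.34 on sham arrays, and that over the 20 Klr and Ly49 rows between -0.39 and 0.37 on omeprazole arrays and between -0.69 and 0.69 on sham arrays.

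Omeprazole was compared with untreated esophagitis to see what the drug changed in operated rats. The myeloid receptor genes Clec5a and Clec4a2 and the Ly49 gene Klra1 were higher on omeprazole arrays, and Ly49si1 was lower. These 4 of 39 members passed, 3 higher and 1 lower, where 4.38% of all genes tested passed, 0.457% higher and 3.93% lower. All omeprazole arrays lay above all untreated arrays in 4 members and below them in 1, against 2.87% and 4.8% of all genes. Of the Clec genes 12 of 19 were higher, with a median change of 0.37, and of the natural killer genes 12 of 20, with a median of 0.26, beside 0.13 over all genes. The natural killer median turned to -0.070 without untreated array 2 and to -0.020 without omeprazole array 3, and it was -0.15 with array weights and -0.48 without untreated arrays 1 and 2. In whole blood fewer cells of a type and less RNA per cell cannot be told apart. Of the cell markers, 12 of 12 for T cells (median 0.93), 8 of 8 for erythroid cells (0.94), 12 of 14 for neutrophils (0.42) and 7 of 12 for monocytes (0.089) were higher on omeprazole arrays, and 8 of 8 for platelets (-0.36) and 8 of 13 for NK and cytotoxic cells (-0.096) were lower. Among them the monocyte receptor gene Cx3cr1 fell by 1.92 ± 0.54 (adjusted p = 0.0454). The mean of the T-cell markers was -2.60 on untreated array 2 and -0.42 to 0.40 on the other untreated arrays, and the part of these cells in the receptor changes was not tested.

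Clec5a, a receptor of monocytes and neutrophils known for binding flaviviruses, had log2 levels of -2.30, -1.65, -3.03 and -1.38 on omeprazole arrays, against -4.51, -4.22, -4.47 and -5.22 on untreated arrays. All omeprazole arrays lay above all untreated arrays, but the probe was dim. It was well above background on 2 of 4 omeprazole arrays and on 0 of 4 untreated arrays, with processed intensities of 16.0 to 66.5 on omeprazole arrays and 4.69 to 9.07 on untreated arrays. The change was 2.52 ± 0.36 (adjusted p = 6.53e-05), and by the bound that background allows, Clec5a was 2.27-fold higher. That bound counts omeprazole arrays not above background at their own signal, so it is no strict lower limit. With another background correction (normexp) the change was 0.66 and still passed. That setting also adds an offset of 50 to every intensity, which shrinks log2 changes of dim probes, here and in the normexp values below. Clec5a entered the test only through arrays where it was high, 2 of omeprazole and 4 of STW5 0.5 ml/kg.

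Clec4a2, a receptor of the Dectin-2 cluster on dendritic cells and other myeloid cells, had levels of 1.20, 1.66, 0.98 and 1.79 on omeprazole arrays, against 0.03, 0.60, 0.15 and -0.74 on untreated arrays. The groups did not overlap, and the gene was above background on all 20 arrays. The change was 1.40 ± 0.35 (adjusted p = 0.0212), which no longer passed without untreated array 4 or omeprazole array 2 or 4 (adjusted p up to 0.0994). The call also ended with spike-in scaling (adjusted p = 0.15) and in a fit of only the groups compared (adjusted p = 0.0737).

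Klra1, named Klra2 in the current gene table, had levels of -0.48, 0.08, -1.08 and 0.46 on omeprazole arrays, against -2.27, -2.89, -0.87 and -2.32 on untreated arrays. Untreated array 3 lay above omeprazole array 3, and the other untreated arrays lay below all omeprazole arrays. The probe was above background on 4 omeprazole and 2 untreated arrays. The change was 1.83 ± 0.44 (adjusted p = 0.0149) and no longer passed without untreated array 2 or 4 or omeprazole array 2 or 4 (adjusted p up to 0.0684). It also failed with spike-in scaling (adjusted p = 0.116) and in a fit of only the groups compared (adjusted p = 0.0998). Without untreated arrays 1 and 2 together the adjusted p was 0.0779.

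Ly49si1, another Ly49 gene, had levels of -4.32, -5.29, -4.63 and -4.95 on omeprazole arrays, against -3.76, -4.24, -2.73 and -2.41 on untreated arrays. It was well above background on 0 of 4 omeprazole arrays and on 2 of 4 untreated arrays, and every omeprazole array lay below every untreated array. Ly49si1 entered the test only through arrays of groups with a higher mean, 2 untreated, 1 of STW5 2 ml/kg and 4 of STW5 0.5 ml/kg. The change was -1.51 ± 0.41 (adjusted p = 0.038), but the bound that background allows gave no fold above 1. The call ended without untreated array 3 or 4 or omeprazole array 2, 3 or 4 (adjusted p up to 0.166). With normexp the change was -0.12 (adjusted p = 0.669), and the call also ended with quantile, median or spike-in scaling, without the filter on dim probes, in a fit of only the groups compared, with the replicate block (adjusted p = 0.0524) and with the authors' value table. Among members short of the threshold, Klra17 had levels of 0.51, 0.31, -0.40 and 0.22 on omeprazole arrays and -1.17, -1.71, -0.52 and -0.90 on untreated arrays, a change of 1.23 ± 0.39 (adjusted p = 0.09). The current gene table names the gene of this probe LOC690045 and gives the symbol Klra17 to another probe, which averaged -0.53 on omeprazole arrays and -1.76 on sham arrays.

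**Figure D2:**
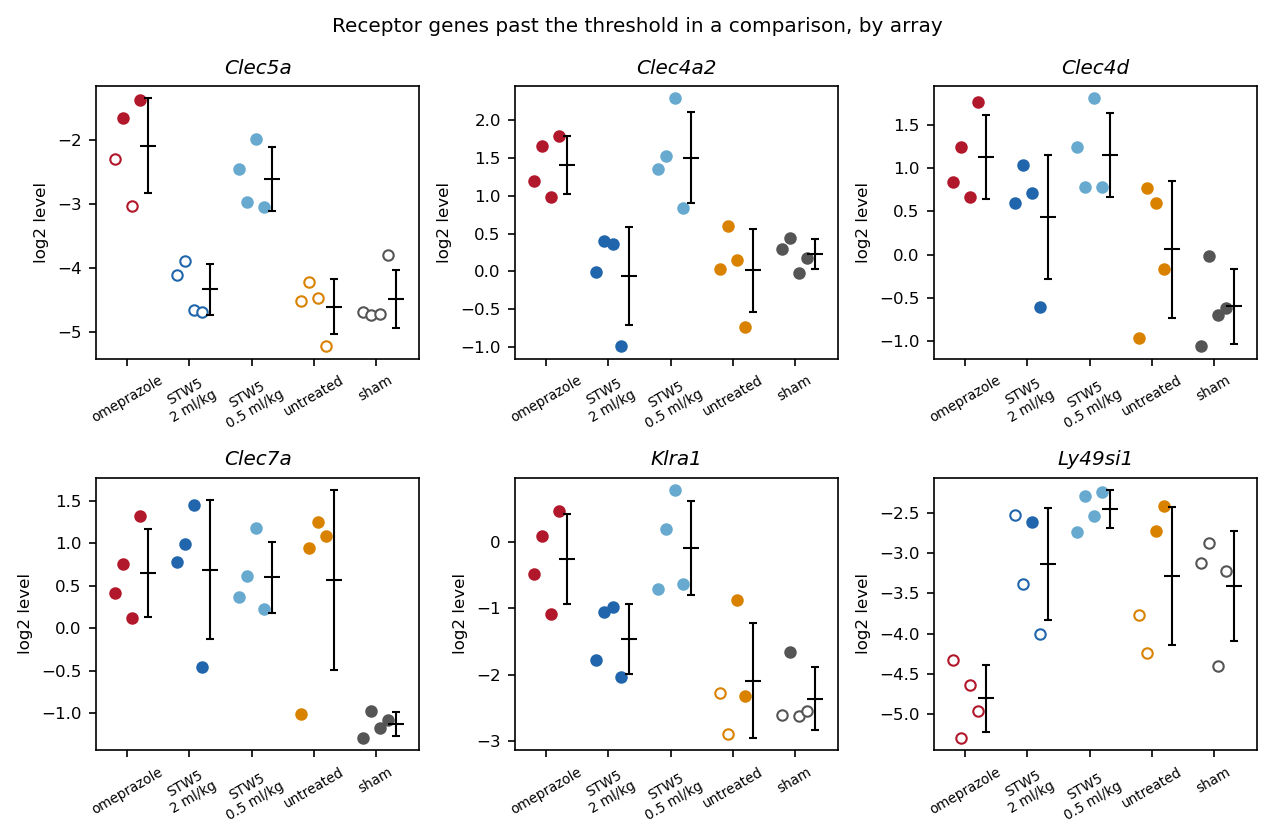
Log2 level (vertical axis) of the 6 receptor genes that passed in at least 1 comparison, with 1 point per array, 4 arrays per group; filled points are well above background and open points are not. Black bars are the group mean ± SD. Clec5a, Clec4a2 and Klra1 are high on omeprazole and STW5 0.5 ml/kg arrays, Clec7a is low on all sham arrays and on untreated array 1, and the mean of Ly49si1 is lowest in the omeprazole group.

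Against sham operation, 3 Clec genes and 1 Ly49 gene were higher on omeprazole arrays. Clec5a, Clec4d, Clec7a and Klra1 rose, 4 of 39 members, where 5.09% of all genes passed, 1.12% higher and 3.97% lower. A higher level was seen in 16 of 19 Clec genes, whose median was 0.51. Of the 39 members 12, among them 10 Clec genes, had all omeprazole arrays above all sham arrays and 1 had all below, against 8.28% and 7.98% of all genes. The natural killer genes were split, 9 of 20 higher and a median of -0.15, and the median of all genes was 0.01. That natural killer median turned to 0.020 without sham array 1 and to 0.19 over members above background on at least 10 arrays. With scaling to spike-in probes it was 0.41, where that of all genes was 0.56. All 6 genes of the Dectin-2 cluster were higher, with a median of 0.84, and 4 of 5 of the Dectin-1 cluster, with a median of 1.27.

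Clec7a had levels of 0.42, 0.76, 0.11 and 1.32 on omeprazole arrays, against -1.29, -0.97, -1.18 and -1.08 on sham arrays. The sham arrays lay within a narrow range below every omeprazole array. The change was 1.78 ± 0.44 (adjusted p = 0.0202), and it no longer passed without sham array 1 or 3 or omeprazole array 2 or 4 (adjusted p up to 0.0993). With normexp it was 1.07 and did not pass (adjusted p = 0.0772). Clec4d had levels of 0.83, 1.25, 0.66 and 1.76 on omeprazole arrays and -1.05, -0.01, -0.70 and -0.62 on sham arrays, with no overlap. Its change was 1.72 ± 0.40 (adjusted p = 0.0126), which ended without sham array 1 or omeprazole array 4 (adjusted p up to 0.0686).

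The sham arrays of Clec5a stood at -4.68, -4.73, -4.72 and -3.80, none well above background, and the change was 2.39 ± 0.36 (adjusted p = 0.000127), 1.42-fold by the bound. With normexp it was 0.34 and did not pass (adjusted p = 0.45). The bound counts omeprazole arrays not above background at their own signal, so it is no strict lower limit. Clec5a entered the test only through omeprazole and STW5 0.5 ml/kg arrays. Klra1 had sham levels of -2.61, -1.65, -2.62 and -2.54, with 1 of 4 arrays above background, all below the omeprazole arrays, and its change was 2.10 ± 0.44 (adjusted p = 0.00486). With normexp it was 0.83 and did not pass (adjusted p = 0.0536). Short of the threshold were Clec4a2 at 1.18 ± 0.35 (adjusted p = 0.0544), Clec1a at 1.78 ± 0.55 (adjusted p = 0.068) and Clec12a, an inhibitory receptor of granulocytes and monocytes, at 1.27 ± 0.42 (adjusted p = 0.0914). Clec12a had levels of 2.99, 3.49, 2.65 and 3.82 on omeprazole arrays and 1.84, 2.22, 1.79 and 2.02 on sham arrays, without overlap. Clec4e had levels of -1.95, -1.18, -1.77 and -0.57 on omeprazole arrays and -2.93, -2.31, -2.62 and -3.79 on sham arrays, a change of 1.55 ± 0.58 (adjusted p = 0.153).

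Neutrophil markers moved with the Clec genes in this comparison. All 14 tested of 15 neutrophil markers were higher on omeprazole arrays than on sham arrays, with a median of 1.54, and 4 passed, among them Cxcr2 at 1.85 ± 0.46, Csf3r at 1.67 ± 0.43 and Ncf4 at 1.32 ± 0.33 (adjusted p = 0.0192 to 0.0262). Their summed level, on the linear scale relative to the array's 75th percentile, ran from 175 to 341 on omeprazole arrays and from 74.0 to 172 on sham arrays. Of the monocyte markers 9 of 12 were higher with a median of 0.39, 0 passed, and the sum was 660 to 1073 on omeprazole arrays and 536 to 734 on sham arrays. The part of neutrophils or monocytes in the Clec changes was not tested.

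**Figure D3:**
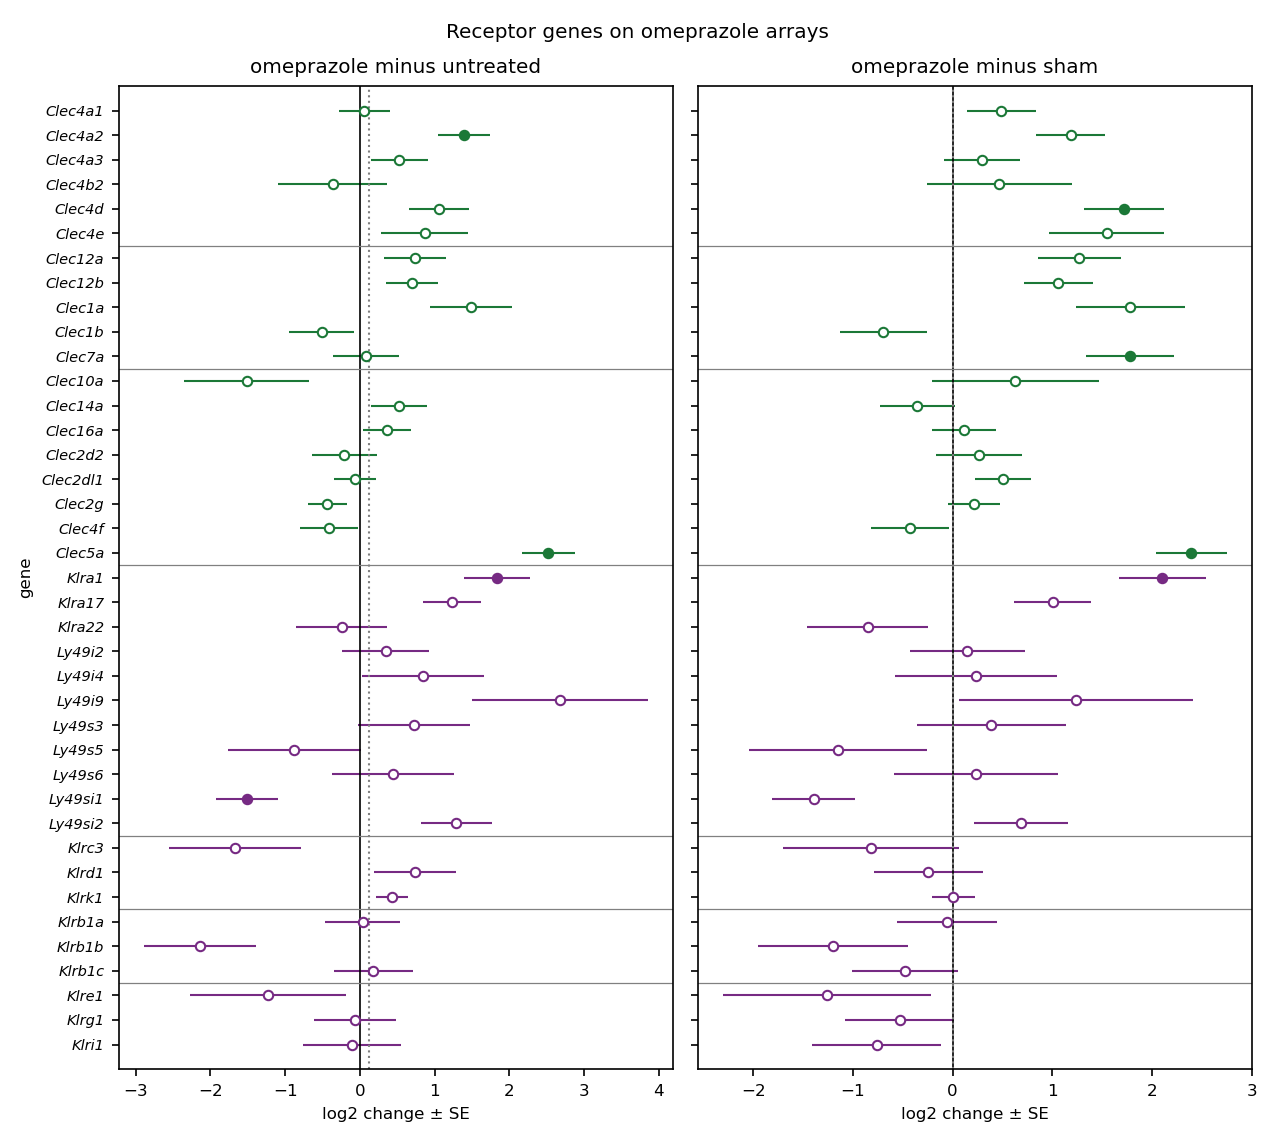
Log2 change ± SE (horizontal axis) of each of the 39 tested genes, omeprazole against untreated on the left and against sham on the right, 4 arrays per group; green marks Clec genes, purple Klr and Ly49 genes, and filled points passed. The dotted line is the median of all genes tested (0.13 on the left, 0.01 on the right). On the right 16 of 19 green points lie above 0, and the natural killer points spread to both sides in each panel.

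Omeprazole and STW5 were set against each other with both doses averaged, which does not depend on the dose labels. Ly49si1 was lower and Clec5a higher on omeprazole arrays, 2 of 39 members, where 5.19% of all genes passed, 0.566% higher and 4.62% lower. In 1 member, Ly49si1, all omeprazole arrays lay below all STW5 arrays and in 0 above, against 3.79% and 1.29% of all genes. Ly49si1 stood at -2.53, -3.38, -2.62 and -4.00 on STW5 2 ml/kg arrays and -2.74, -2.29, -2.54 and -2.24 on STW5 0.5 ml/kg arrays, all above the 4 omeprazole arrays. It was well above background on 1 of 4 STW5 2 ml/kg arrays, 4 of 4 STW5 0.5 ml/kg arrays and 0 of 4 omeprazole arrays. The gene thus entered the test only through untreated and STW5 arrays. The change was -2.01 ± 0.36 (adjusted p = 0.000777), 1.12-fold lower by the bound. With normexp it was -0.35 and did not pass (adjusted p = 0.137), nor did it pass with spike-in scaling (adjusted p = 0.0597). The bound counts STW5 2 ml/kg arrays not above background at their own signal, so it is no strict lower limit. The Clec5a change was 1.39 ± 0.31 (adjusted p = 0.00682), with overlap between the groups, on a probe above background on 2 of 4 omeprazole arrays, 0 of 4 STW5 2 ml/kg arrays and 4 of 4 STW5 0.5 ml/kg arrays. It was 0.31 with normexp (adjusted p = 0.436), and it ended without omeprazole array 2 or 4 (adjusted p up to 0.0583). Clec5a entered the test only through those omeprazole and STW5 0.5 ml/kg arrays. Higher levels were found in 12 of 19 Clec genes (median 0.21) and in 6 of 20 natural killer genes (median -0.59), and the median of all genes was 0.07. The natural killer median was -0.24 over members above background on at least 10 arrays and -0.22 with normexp. With scaling to spike-in probes it was -0.20, where that of all genes was 0.46. Of the NK and cytotoxic markers 10 of 13 were lower too, with a median of -0.49, and Tbx21, a transcription factor of natural killer and T helper cells, fell by 1.32 ± 0.27 (adjusted p = 0.00306). The summed level of these markers was 123 to 199 on omeprazole arrays, 340 to 618 on STW5 2 ml/kg arrays and 149 to 365 on STW5 0.5 ml/kg arrays. The mean of their log2 deviations overlapped. It was -0.65 to 0.30 on omeprazole, -0.10 to 0.65 on STW5 2 ml/kg and -0.42 to 1.43 on STW5 0.5 ml/kg arrays. Whether these markers account for the lower natural killer genes was not tested.

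For STW5 against untreated esophagitis, no member passed at either dose or for their mean, nor did any gene on the array (0% in each comparison by limma). At an unadjusted p below 0.05, 3 members differed at 2 ml/kg, 12 at 0.5 ml/kg and 7 for the mean of both doses, of 3480, 816 and 1463 genes in all. No member had groups apart at 2 ml/kg or for the mean, where 3.11% and 0.0409% of all genes lay above and 1.18% and 0.0477% below. At 0.5 ml/kg Clec5a had levels of -2.45, -2.97, -1.98 and -3.05, all above background and all above the 4 untreated arrays. It was at least 1.57-fold higher by the bound, and the fitted change of 1.99 ± 0.36 did not pass (adjusted p = 0.143). With normexp that change was 0.27 (adjusted p = 0.871). Klra1 stood at -0.71, 0.20, 0.78 and -0.64 on these arrays, a change of 1.99 ± 0.44 (adjusted p = 0.494), and Clec4a2 at 1.36, 1.52, 2.29 and 0.83, a change of 1.49 ± 0.35 (adjusted p = 0.494). Both genes had all 4 STW5 0.5 ml/kg arrays above all untreated arrays, as did Clec4d at 1.09 ± 0.40. With Clec5a these 4 members compare with 0.688% of all genes above and 0.757% below. Clec5a entered the test only through these STW5 0.5 ml/kg arrays and 2 omeprazole arrays, so its place in that count is no independent evidence.

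The natural killer genes leaned one way at 0.5 ml/kg without passing singly: 18 of 20 were higher than in untreated blood, with a median of 0.92, including all 11 Ly49 genes with a median of 1.28. The median of 0.92 was 0.55 without untreated array 2, 0.61 without STW5 0.5 ml/kg array 2 and 0.38 without untreated arrays 1 and 2. It was 0.40 with array weights, 0.25 with normexp, 0.31 with the authors' value table and 0.27 with the dose labels exchanged. The median of all genes was 0.05, and the Clec genes had 12 of 19 higher with a median of 0.27. The mean of the 20 natural killer genes' deviations ran from -0.35 to 1.41 on STW5 0.5 ml/kg arrays and from -1.22 to 0.42 on untreated arrays, so the groups overlapped. STW5 0.5 ml/kg array 2 held the highest value of its group in 15 of the 20 genes. Of the NK and cytotoxic markers 11 of 13 were higher as well, with a median of 0.50, and that array was also highest in their mean, at 1.43. At 2 ml/kg the natural killer genes had a median of 0.27 with 16 of 20 higher, and the Clec genes a median of 0.12 with 12 of 19 higher. With scaling to spike-in probes those medians were -0.63 and -0.78, beside -0.88 over all genes, so the direction at 2 ml/kg depended on the scaling. It depended on the untreated arrays too. The natural killer median was -0.0050 without untreated array 2, -0.38 without untreated arrays 1 and 2, and -0.095 with array weights. The Clec median was -0.025 without untreated array 1. Clec14a stood at 0.10, -0.25, -1.10 and -0.53 on STW5 2 ml/kg arrays and at -0.53, -1.34, -2.36 and -1.74 on untreated arrays, with overlap. Its change was 1.05 ± 0.37 (adjusted p = 0.118) and that of Klrk1 0.53 ± 0.21 (adjusted p = 0.15). Without untreated array 1, the highest of its group in both genes, both passed, at 1.37 and 0.71 (adjusted p = 0.0194 and 0.0273). In that fit 2891 of 14671 genes passed. Leaving out each array in turn gave adjusted p values up to 0.327 for Clec14a and 0.325 for Klrk1.

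Between the STW5 doses, which share a slide, no member and no gene passed (0% by limma), while 9 members and 3817 genes had an unadjusted p below 0.05. In 2 members all arrays at 2 ml/kg lay above those at 0.5 ml/kg and in 4 below, against 5.47% and 5.43% of all genes. The smallest adjusted p values lay just above the threshold. Clec5a had levels of -4.11, -3.89, -4.66 and -4.68 at 2 ml/kg, none well above background, against the 4 arrays at 0.5 ml/kg given above, and the groups did not overlap. The change was -1.72 ± 0.36 (adjusted p = 0.0512), the bound gave no fold above 1, and the change turned to 0.14 with normexp. Clec5a entered the test only through those arrays at 0.5 ml/kg and omeprazole arrays. Its place among the 4 members below is therefore no independent evidence. Clec4a2 had levels of -0.01, 0.40, 0.37 and -0.99 at 2 ml/kg, all below those at 0.5 ml/kg, a change of -1.56 ± 0.35 (adjusted p = 0.052). Klra1 had -1.78, -1.05, -0.98 and -2.03 at 2 ml/kg, also all lower, a change of -1.37 ± 0.44 (adjusted p = 0.101). Klrk1 stood at 2.03, 2.03, 1.87 and 2.09 at 2 ml/kg and at 1.66, 1.79, 1.55 and 1.45 at 0.5 ml/kg, a change of 0.39 ± 0.21 (adjusted p = 0.243). Its second probe went the other way, with means of -0.80 and -0.23.

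All 6 genes of the Dectin-2 cluster and 10 of 11 Ly49 genes were lower at 2 ml/kg than at 0.5 ml/kg, with medians of -0.83 and -1.02, beside 0.02 over all genes. Of the neutrophil markers 13 of 14 were lower, with a median of -0.63, and of the monocyte markers 9 of 12, with a median of -0.82. With normexp the medians of all tested Clec and natural killer genes in this comparison were 0.06 and 0.12, against -0.66 and -0.63 with the scanner's correction. The normexp setting adds an offset of 50 to every intensity, which weighs most on dim probes and dim arrays. The direction depended on this setting as a whole, and the parts of its correction and its offset were not tested. The 75th percentile was 65.0 to 136 on the arrays at 2 ml/kg and 128 to 232 on those at 0.5 ml/kg, and its part in these differences was not tested.

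Against sham, the mean of both STW5 doses gave no member past the threshold and no gene in all (0% by limma), with 10 members and 1223 genes at an unadjusted p below 0.05. In 1 member all STW5 arrays lay above all sham arrays and in 0 below, against 1.07% and 0.409% of all genes. That member was Clec7a, at 0.78, 0.99, 1.45 and -0.46 for 2 ml/kg and at 0.37, 0.62, 1.18 and 0.22 for 0.5 ml/kg. This change was 1.78 ± 0.38 (adjusted p = 0.342) and rests on the same sham arrays as that of omeprazole. Clec4d changed by 1.39 ± 0.35 and Klra1 by 1.58 ± 0.38 (adjusted p = 0.342 each). Higher levels were found in 16 of 19 Clec genes (median 0.51) and in 13 of 20 natural killer genes (median 0.18), beside a median of -0.06 over all genes. The natural killer median turned to -0.067 without sham array 3 and to -0.037 with normexp. All 14 neutrophil markers were higher (median 1.01) and all 12 T-cell markers lower (median -0.56) on STW5 arrays than on sham arrays.

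Untreated reflux rats and sham rats, on the same slide, were compared to see how the receptor genes stood after reflux without treatment. No member passed, where 0.0136% of all genes did, and 4 members and 2769 genes had an unadjusted p below 0.05 by limma. No member had groups apart, where 1.49% of all genes lay above and 1.55% below. Clec7a had levels of -1.01, 0.94, 1.25 and 1.09 on untreated arrays, against the sham levels given above. Untreated array 1 lay among the sham arrays and the other 3 lay far above them. The change was 1.70 ± 0.44 (adjusted p = 0.22). Without untreated array 1, the lowest of its group, it was 2.23 and passed (adjusted p = 0.00288), as did 1999 of 14671 genes. Leaving out each array in turn gave adjusted p values up to 0.452.

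Clec10a, a galactose-binding lectin of macrophages, stood at -2.51, 0.91, -0.52 and 3.29 on untreated arrays and at -2.16, -1.49, -2.45 and -1.31 on sham arrays, a change of 2.14 ± 0.84 (adjusted p = 0.238). Clec14a, with the untreated levels given above, had -0.47, -1.03, -0.35 and -0.61 on sham arrays, a change of -0.88 ± 0.37 (adjusted p = 0.247). Both overlapped between groups. Higher levels were found in 12 of 19 Clec genes (median 0.43) and in 4 of 20 natural killer genes (median -0.31), beside a median of -0.13 over all genes. The natural killer median was -0.025 without sham array 1, -0.10 without sham array 2, -0.026 without untreated array 2 and -0.16 without untreated array 1. It turned to 0.12 with array weights, 0.44 without untreated arrays 1 and 2, and 0.20 with scaling to spike-in probes, where that of all genes was 0.38. The Clec median turned to -0.047 with normexp. All 14 neutrophil markers were higher, with a median of 1.05 and a summed level of 102 to 924 on untreated arrays and 74.0 to 172 on sham arrays, and of the T-cell markers 12 of 12 were lower with a median of -1.12. The neutrophil mean was -0.95, 1.49, -0.02 and -0.07 on untreated arrays 1 to 4, against -1.35 to -0.58 on sham arrays. The T-cell mean was 0.40, -2.60, 0.06 and -0.42, against 0.30 to 0.83. In both lists untreated array 1 lay within the sham range and array 2 was the most extreme.

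Several natural killer genes varied widely between rats of a group. Klrb1a, a receptor of the NKR-P1 family, had 0.20, -1.47, -2.24 and -2.53 on the sham arrays, a span wider than that of its group means, which ran from -1.60 in untreated blood to -0.55 in STW5 0.5 ml/kg blood. Klrg1, an inhibitory receptor of mature natural killer and T cells, had -1.30, -2.87, -3.21 and -4.44 on the same arrays. It was well above background on 0 of 4 omeprazole arrays and 2 of 4 sham arrays. Klrd1, which encodes CD94, had -1.07, -1.25, -2.37 and -2.76 on the sham arrays. Sham arrays 1 and 2 held the group's highest value in 9 natural killer genes each, and sham arrays 3 and 4 its lowest in 9 each. The mean of the natural killer genes was 0.69 and 0.47 on sham arrays 1 and 2, against -0.69 and -0.59 on sham arrays 3 and 4, while the NK and cytotoxic markers were high on sham array 1 alone, at 1.17, with -0.39, -0.46 and -0.88 on the others.

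Klrk1 had a narrow spread in both the omeprazole and the sham group: 1.90, 1.78, 1.98 and 1.95 on omeprazole arrays and 1.88, 1.89, 1.90 and 1.92 on sham arrays. Untreated arrays read 1.99, 0.79, 1.58 and 1.53, of which array 2 stood lowest. The change of untreated against sham was -0.42 ± 0.21 (adjusted p = 0.274) and turned to 0.083 with spike-in scaling. That of omeprazole against sham was 0.01 ± 0.21, with a 95% interval of -0.44 to 0.46. Its second probe averaged -0.19 on omeprazole arrays, -1.20 on untreated arrays and -0.38 on sham arrays, so it too was lowest in untreated blood.

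Single arrays decided the mean of Ly49i9, which is read from 1 spot. It lay at -4.33 on STW5 2 ml/kg array 1 and at -5.60 on untreated array 4, both not above background, and between -0.56 and 2.99 on the other 18 arrays. The change of omeprazole against untreated was 2.68 ± 1.17 (adjusted p = 0.252). Clec1b had levels of 3.14, 2.88, 3.48 and 2.59 on omeprazole arrays, below all 4 sham arrays at 3.69, 3.74, 3.67 and 3.77, a change of -0.70 ± 0.44 (adjusted p = 0.542). Platelet markers had 6 of 8 higher in the same comparison, with a median of 0.13. Clec4a1, a Dectin-2 cluster gene, ran from 2.38 to 2.64 on omeprazole arrays and from 1.76 to 2.20 on sham arrays, a change of 0.49 ± 0.35 (adjusted p = 0.627).

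**Figure D4:**
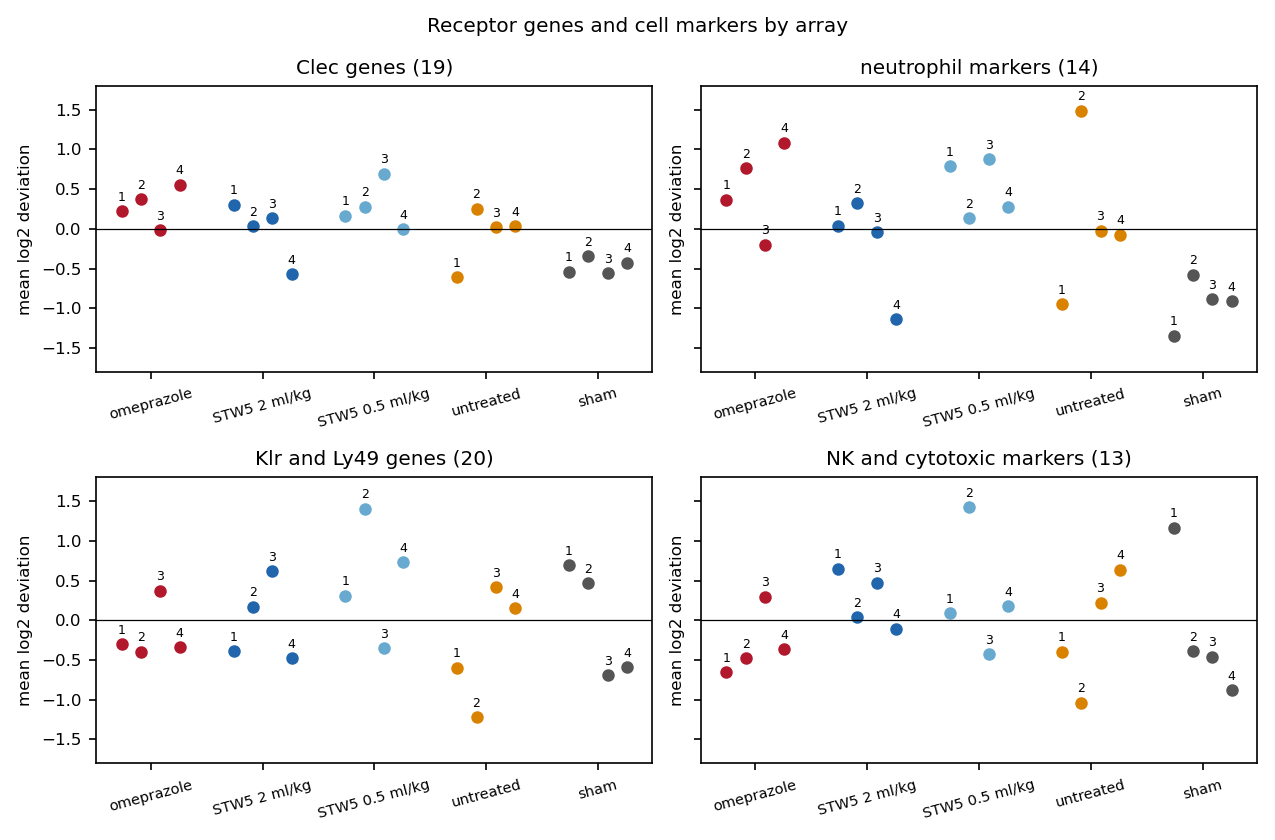
Mean over each list of the gene's log2 level minus its mean over 20 arrays (vertical axis), with 1 numbered point per array, 4 arrays per group; the number of genes is in each title. The Clec genes are lowest on sham arrays and on array 4 of STW5 2 ml/kg and array 1 of untreated, where the neutrophil markers are low too. The Klr and Ly49 genes range from -1.22 on untreated array 2 to 1.41 on STW5 0.5 ml/kg array 2, the same 2 arrays that are lowest and highest in the NK and cytotoxic markers.

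The signalling partners of these receptors were all detected: 22 of 22 listed adaptors, kinases and phosphatases were tested, and 0 passed in each of the 9 comparisons by limma, with 0 to 6 at an unadjusted p below 0.05. Against sham, omeprazole arrays had 18 of 22 higher, with a median of 0.27, and 6 of them had all omeprazole arrays above all sham arrays, against 8.28% of all genes. Tyrobp (Dap12), the adaptor of Clec5a and of activating Ly49 receptors, had levels of 8.10, 8.40, 7.48 and 8.55 on omeprazole arrays and 6.94, 7.10, 6.63 and 7.08 on sham arrays. The omeprazole arrays all lay above the sham arrays, and the change was 1.20 ± 0.36 (adjusted p = 0.0581). Card9, the adaptor through which Dectin-1 and Mincle reach NF-kB, changed by 1.02 ± 0.35 (adjusted p = 0.11), and Fcer1g, the adaptor of Mincle, by 0.83 ± 0.31 (adjusted p = 0.157). Against untreated esophagitis 18 of 22 were also higher on omeprazole arrays, with a median of 0.30. Between the STW5 doses 19 of 22 were lower at 2 ml/kg, with a median of -0.38, among them Vav3 at -1.13 ± 0.23 (adjusted p = 0.0512).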

How the data were processed

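Spot intensities come from Agilent Feature Extraction. Per the file headers, background had been subtracted and spatial trends removed from the processed intensity. No scaling between arrays is recorded there. The value table deposited by the authors is a ratio: its values equal each spot's processed signal over the median spot of the same array. All 8 of its STW5 columns follow the other dose's array and the other 12 their own. Titles and design text also number the doses in opposite order, and titles were followed.

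Spots of a probe were averaged on the log2 scale without outlier flags. A probe was above background on an array where most of its spots were, and tested if so on 4 arrays. Means of 5 groups were fitted to 20 arrays with limma 3.58.1 (R 4.3.3, lmFit, then eBayes, 15 residual degrees of freedom), with two-sided p values and Benjamini-Hochberg adjustment over 14671 genes, for 9 comparisons. All adjusted p values are limma's. Where a probe was above background on no array of a group, the fold is a bound: on each array of that group the probe counts at its own signal or at the dimmest signal called above background, whichever is higher. Arrays of the other group count at their own signal. The words "at least" are used only where all of these were above background. Bounds do not allow for sampling error.

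The 17 genes given array by array are those past the threshold, the smallest p of each class per comparison, the 3 brightest of each class in sham blood and a short list of known receptors. Clec10a and a few others given by their changes were named after their values were seen. Gene names are those of the scanner files, and the RefSeq table (GRCr8) named 20673 of 30367 probes. The members, lists and tests were chosen with earlier results of these data known. The method was tested on simulated data. Alternatives were other background correction (normexp, with an offset of 50 added to every intensity), scaling, filters, probe averaging, array weights, fits, the value table, exchanged doses and leaving out each array. Values of some marker genes are not reported here.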

Additional observations from a re-analysis of the deposited data

Results flagged for a closer look

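In 85 checks of 17 named genes in 5 groups of 4 arrays, 4 arrays stood apart from the rest of their group by Dixon's criterion (4.71%, where chance gives about 1 in 20). Clec7a was at -1.01 on untreated array 1, against 0.94 to 1.25 on the other 3 untreated arrays. Clec5a was at -3.80 on sham array 4, against -4.73 to -4.68 on the other sham arrays, all not well above background. Klra1 was at -1.65 on sham array 2, against -2.62 to -2.54 on the others. Clec14a was at -1.57 on omeprazole array 4, against -0.81 to -0.70 on the others.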

How the results depend on the processing

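Counts of members past the threshold depended on the arrays and on the processing, and so did those of all genes, which stand in brackets (of 14671 unless stated). Leaving out 1 array at a time gave 2 to 7 members (440 to 942 genes) for omeprazole against sham, 1 to 6 (481 to 1274) for omeprazole against untreated, 1 to 3 (530 to 892) for omeprazole against STW5, 0 to 4 (0 to 1999) for untreated against sham, 0 to 3 (0 to 2891) for STW5 2 ml/kg against untreated and 0 to 4 (0 to 742) between the STW5 doses. It gave 0 to 0 members for STW5 0.5 ml/kg (0 to 4) and mean STW5 (0 to 298) against untreated and for mean STW5 against sham (0 to 0). With untreated arrays 1 and 2 left out the counts were 6 (4313) for untreated against sham, 8 (1157) for omeprazole against sham, 1 (18) for STW5 against sham, 4 (4555) for STW5 2 ml/kg and 2 (1106) for mean STW5 against untreated, and 3 (315) between doses. Array quality weights, with a weight of 9.06 on omeprazole array 2, gave 15 (4307) for omeprazole against sham, 9 (2008) for omeprazole against untreated, 9 (3390) for omeprazole against STW5, 6 (687) between doses, and 4 each for untreated (1624) and STW5 (537) against sham. Fitting only the groups compared gave 12 (1591) for omeprazole against sham and 1 each for omeprazole against untreated (389) and STW5 against sham (20). The normexp correction gave 1 (561) for omeprazole against sham, 0 (633) for omeprazole against STW5 and 5 (1565) between doses. Spike-in scaling, which put the median of all genes at -1.11 between doses and at 0.56 for omeprazole against sham, gave 19 (7671) between doses, 2 (3654) for STW5 2 ml/kg against untreated, and 1 each for omeprazole against untreated (409) and against STW5 (365). Requiring 10 arrays above background, which left 13108 genes and neither Clec5a nor Ly49si1, gave 2 (607) for omeprazole against untreated, 0 (709) for omeprazole against STW5 and 1 (121) between doses. Between doses, quantile normalization gave 1 (49), median scaling 2 (70) and the authors' values 2 (104).

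The main fit took no pairing by replicate number. Deviations of same-numbered arrays had a median correlation of 0.0912 over 40 pairs (-0.448 to 0.6). For arrays of different number it was -0.0368 over 120 pairs (-0.66 to 0.597). Correlations above 0.1 were found in 19 of the 40 and in 39 of the 120 pairs. Whether the numbers pair the arrays was not tested. A fit with the replicate number as a block gave 3 members (233 genes) between doses, 5 for omeprazole against sham, 3 for omeprazole against untreated and 2 for omeprazole against STW5. Spike-in scaling turned Klrk1 to 0.083 for untreated against sham and to -0.37 for STW5 2 ml/kg against untreated, and normexp turned Clec5a to 0.14 between doses. With the doses of the value table, the changes between doses were 1.73 for Clec5a, 1.38 for Klra1 and 1.57 for Clec4a2, and exchanging the labels gave 1.72, 1.37 and 1.56. Clec4a2 for STW5 0.5 ml/kg against untreated then was -0.0381 and -0.0704. The causes were not tested, other than where fewer genes or arrays entered the fit. Dim probes limit most natural killer genes: only Klrk1 was above background on all arrays.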
